A study of Mus musculus with 4 samples.

Results

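The probes described here form a complete set of designed DNA sequences built on a single backbone that holds a binding site of the transcription factor MITF. Each of 3 nominal positions, 6, 12 and 18, carried TT, TC, CT, CC or no added dipyrimidine on the listed strand, which gave 5 × 5 × 5 probes, 1 for each combination. The probes were chosen by their names alone, from 6126 probe names on the array that stood for 5480 distinct sequences, of which they made up 2.28%. The sequences matched the names. All were distinct, the number of dipyrimidines equalled the number of sites in each, and 0 had a dipyrimidine on the opposite strand. Of these probes, 1 had no site, 12 had 1 site, 48 had 2 sites and 64 had 3 sites.

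Antibodies against 2 kinds of UV damage were placed on arrays of these probes, and bound antibody was read as fluorescence of an Alexa dye. A mouse antibody against cyclobutane pyrimidine dimers (CPD), diluted 1 in 400, was used on 1 array labelled non-UV (untreated below) and 1 labelled UV (irradiated below), and a mouse antibody against 6-4 photoproducts (6-4PP), diluted 1 in 80, likewise. The organism named in the labels is the mouse, while the measured items are synthetic DNA and hold no mouse RNA or cells. With 1 array for each antibody and condition, no difference between arrays has a replicate, and no p-value between conditions was computed. For both 6-4PP arrays the title and the array condition field name opposite conditions, and the condition field was followed. The series title places these arrays in work on how UV changes transcription factor binding. UV dose and scanner gain were not stated in the labels.

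UV light joins neighbouring pyrimidines on a DNA strand. In a CPD the bases are linked through a ring, and TT is its classic site. In a 6-4PP the bases are linked by a single bond, and TT and TC steps are its best known sites. MITF is a basic helix-loop-helix leucine zipper factor of melanocytes, the pigment cells of the skin, and binds the E-box CACGTG, which has no dipyrimidine on either strand.

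The sequences below show what a site is and where it stands. The name gives the type at positions 6, 12 and 18 in that order, with N for no site. All are listed-strand sequences written 5′ to 3′. Capitals mark the added dipyrimidines, and in the probe without a site they mark the E-box. The probe without a site is followed by TT at each position in turn, by TC, CT and CC at position 12, and by the probes with the same type at all 3 positions.
N-N-N probe: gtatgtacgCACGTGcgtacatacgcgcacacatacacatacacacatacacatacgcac
TT-N-N probe: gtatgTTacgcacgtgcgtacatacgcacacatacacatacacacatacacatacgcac
N-TT-N probe: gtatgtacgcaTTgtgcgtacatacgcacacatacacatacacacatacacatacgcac
N-N-TT probe: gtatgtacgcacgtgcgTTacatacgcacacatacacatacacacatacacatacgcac
N-TC-N probe: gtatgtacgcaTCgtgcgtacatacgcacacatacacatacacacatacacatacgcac
N-CT-N probe: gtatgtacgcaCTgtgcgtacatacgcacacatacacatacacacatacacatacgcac
N-CC-N probe: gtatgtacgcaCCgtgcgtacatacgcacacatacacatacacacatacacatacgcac
TT-TT-TT probe: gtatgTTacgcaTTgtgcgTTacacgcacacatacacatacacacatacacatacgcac
TC-TC-TC probe: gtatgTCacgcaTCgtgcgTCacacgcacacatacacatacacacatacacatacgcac
CT-CT-CT probe: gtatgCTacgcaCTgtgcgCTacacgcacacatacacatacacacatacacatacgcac
CC-CC-CC probe: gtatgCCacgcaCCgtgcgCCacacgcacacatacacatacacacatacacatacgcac

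Where a position held no site, a single pyrimidine stood between the same purines, so a site turned a lone pyrimidine into a pair. At positions 6 and 18 the pair lay between G and A, so TT reads GTTA, TC reads GTCA, CT reads GCTA and CC reads GCCA. At position 12 it lay between A and G inside the E-box, so TT reads ATTG, TC reads ATCG, CT reads ACTG and CC reads ACCG. Any site at position 12 split the E-box, and CACGTG was present in the 25 probes with N there and in no other. Positions 6 and 18 thus shared their flanking bases and position 12 differed from them in both place and flanks. The first 5 and the last 35 bases were the same in every probe. Probes with 0 or 2 sites had 60 bases and those with 1 or 3 sites had 59, so an added site also moved the bases that followed it. The site named 6 began at base 6 in every probe that had it, the site named 12 at base 12 or 13, and the site named 18 at bases 18 to 20.

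Each probe was printed in 10 spots, and its level was the median intensity of its unflagged spots. Probe medians ran from 25.5 to 41.5 on the untreated CPD array and from 51.5 to 68.5 on the untreated 6-4PP array. They ran from 1345 to 14752.5 on the irradiated CPD array, an 11.0-fold range, and from 3740.5 to 39836.5 on the irradiated 6-4PP array, a 10.65-fold range. No spot of these probes reached the ceiling of the scale. The median SD of log2 intensity over the spots of a probe was 0.49 on the irradiated CPD array and 0.23 on the irradiated 6-4PP array, against SDs of 0.84 and 0.70 between probes. Local brightness around these spots ran from 1208 to 7814 on the irradiated CPD array. In the deposited intensity adjusted for local brightness, the median spot SD there was 0.32 (0.23 on the irradiated 6-4PP array). Adjusted values are given beside CPD results where they change a reading.

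The probe without a site ranked 120 and 121 from the top on the untreated and irradiated CPD arrays and 106 on the untreated 6-4PP array, and was the dimmest on the irradiated 6-4PP array. Its median was 27 on the untreated CPD array, 1572.5 ± 937 (SD, 10 spots) on the irradiated CPD array, 54 on the untreated 6-4PP array and 3740.5 ± 809 (SD, 10 spots) on the irradiated 6-4PP array. The same sequence was printed under 4 names, with 40 spots in all. Over those names its median ran from 1572.5 to 2357.5 on the irradiated CPD array and from 3740.5 to 4606 on the irradiated 6-4PP array. The name that belongs to this set was the lowest of the 4 on both UV arrays in the unadjusted intensity. In the adjusted intensity it read 2408.51 on the irradiated CPD array, where the 4 names ran from 2135.71 to 2418.94. Folds over it are therefore also given over all 40 spots, with unadjusted medians of 2147.5 and 4388. That reference was chosen after the data had been seen.

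A lone TT gave the brightest CPD signal of the 12 probes with 1 site at each position. Its median was 6260 ± 970 at position 6, 8823 ± 2162 at position 12 and 5625.5 ± 1117 at position 18 (SD, 10 spots each). These are 3.98, 5.61 and 3.58 times the probe without a site, or 2.92, 4.11 and 2.62 times the median of all 40 spots. The spots of each TT probe lay entirely above the 10 spots of the probe without a site. An exact two-sided permutation test over spots gave an adjusted p of 5.77e-05 for all 3, from a raw p of 1.08e-05, the smallest that 10 spots against 10 can give. Adjustment was by Benjamini-Hochberg over 48 tests, the 12 probes on 4 arrays, and each test compares spots of an array and not conditions.

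The other types gave weaker CPD signals when alone. TC reached 5081 at position 12 (exact permutation test, adjusted p = 0.00824) but 1701 at position 6 and 1800.5 at position 18 (adjusted p = 0.537 and 0.445). CT reached 3477 at position 6 and 3425.5 at position 18 (exact permutation test, adjusted p = 0.00508 and 0.00288) but 2267 at position 12 (adjusted p = 0.247). CC stayed near the probe without a site, at 1642.5, 1639.5 and 1480.5 (exact permutation test, adjusted p = 0.861, 0.861 and 0.585). Together 6 of the 12 single-site probes differed from the probe without a site, all 6 being higher.

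With the spatially adjusted intensity 10 of the 12 differed, 8 higher and 2 lower. The lower ones were CC at position 6, at 0.864 times the probe without a site, and CC at position 18, at 0.733 times. TT then stood at 2.24, 4.63 and 2.28 times, and TC at position 12 at 1.80 times. CT stood at 1.31, 1.45 and 1.33 times at positions 6, 12 and 18, so position 12 was no longer its lowest. Over all 40 spots a permutation test gave the same counts, 6 on the unadjusted scale and 10 on the adjusted scale.

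On the irradiated 6-4PP array a lone TC was brighter than a lone TT at positions 12 and 18, while at position 6 their order depended on the measure. TC read 8882.5 ± 1682 at position 6, 18787.5 ± 3099 at position 12 and 10714 ± 2628 at position 18 (SD, 10 spots each). These are 2.37, 5.02 and 2.86 times the probe without a site, and 2.02, 4.28 and 2.44 times the median of all 40 spots. TT followed with 8030 ± 2651, 12300 ± 5450 and 9161.5 ± 1684, or 2.15, 3.29 and 2.45 times. At position 6 the adjusted medians put TT above TC, at 9261.21 against 8428.78. The mean log2 difference from the probe without a site there was also larger for TT, at 1.33 ± 0.16 against 1.23 ± 0.14 (SE) in the unadjusted intensity. Spots of the TC and TT probes did not overlap those of the probe without a site at any position.

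CC and CT were dimmer but still above the reference. CC read 5690.5, 6863 and 5981 at positions 6, 12 and 18, or 1.52, 1.83 and 1.60 times the probe without a site. CT read 5478, 5524 and 5731.5, or 1.46, 1.48 and 1.53 times. All 12 single-site probes differed from the probe without a site in the exact permutation test, with adjusted p-values from 5.77e-05 to 0.038. In the adjusted intensity 11 of 12 did, CT at position 6 having an adjusted p of 0.077 in that exact test. Against all 40 spots the count was 10 of 12, CT at positions 6 and 12 missing the threshold with an adjusted p of 0.075 each in a permutation test. With both changes it was 9 of 12, CT missing at all 3 positions. Over the 40 unadjusted spots folds were 1.25 to 1.31 for CT and 1.30 to 1.56 for CC.

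Few single sites could be told from the reference on the non-UV arrays. On the untreated CPD array 1 of 12 single-site probes passed, TT at position 12, with a median of 33 against 27 (exact permutation test, adjusted p = 0.017), with 4 at an unadjusted p under 0.05 and 4 passing against all 40 spots. On the untreated 6-4PP array 0 of 12 passed, with 0 at an unadjusted p under 0.05. The no-site probe there read 54 and the 12 single-site probes 52 to 61.5. The lone TC at position 12, the brightest single site after UV with 6-4PP, read 31 on the untreated CPD array and 54 on the untreated 6-4PP array.

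Lone TT and TC sites were brighter at position 12, while no pair of positions passed for lone CT or CC. TT at position 12 exceeded TT at position 18 by 1.57-fold for CPD and 1.34-fold for 6-4PP (exact permutation tests over spots, adjusted p = 0.006 and 0.010), and exceeded position 6 with an adjusted p of 0.027 in both. For 6-4PP, TC at position 6 was 0.473 times TC at position 12, which was 1.75 times TC at position 18 (exact permutation test, adjusted p = 0.00026 for both). For CPD, TC at position 12 exceeded position 6 (exact permutation test, adjusted p = 0.027) while the difference from position 18 had an adjusted p of 0.127 (0.000104 in the adjusted intensity). Of 24 such pairs over both UV arrays, 3 of 12 passed for CPD and 4 of 12 for 6-4PP, and every passing pair included position 12. No pair of positions 6 and 18 passed. In the adjusted intensity the counts were 5 and 7, with CC at position 12 over position 18 among them on both arrays, and TC at position 18 over position 6 for 6-4PP (exact permutation test, adjusted p = 0.00999).

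The whole set gave the effect of each type averaged over all combinations of the other sites. Log2 medians were fitted by least squares on type and position, 12 effects against no site, and the error given is the SD over the 10 sets of replicate spots, each set holding 1 spot of every probe where unflagged. That SD describes a single set of spots on that array. Averaged over positions on the irradiated CPD array, TT added 1.16 ± 0.08 on the log2 scale, a 2.23-fold change. TC added 0.36 ± 0.15, CT 0.32 ± 0.12 and CC -0.04 ± 0.12 (CC was -0.11 ± 0.05 in the adjusted intensity). TT was thus set apart from the rest by several SDs, while TC and CT differed by 0.04 ± 0.05. From single-site probes alone against all 40 no-site spots, TC was at 0.22 and CT at 0.48 (0.43 and 0.50 in the adjusted intensity).

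With 6-4PP the order was TC over TT over CC over CT. TC added 1.01 ± 0.04, or 2.01-fold, TT 0.64 ± 0.03, CC 0.30 ± 0.04 and CT 0.10 ± 0.05. Every neighbour in that order was separated by more than the SD, the closest being CT minus CC at -0.19 ± 0.05. The share of variance of log2 medians that additive effects accounted for (R squared) was 0.863 for CPD and 0.968 for 6-4PP.

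Position 12 carried the largest share of the spread. For CPD, TT added 1.09 ± 0.14 at position 6, 1.53 ± 0.11 at position 12 and 0.86 ± 0.14 at position 18. For 6-4PP, TC added 0.66 ± 0.05, 1.56 ± 0.08 and 0.80 ± 0.04, and TT added 0.48 ± 0.04, 0.97 ± 0.08 and 0.46 ± 0.05. Position 12 accounted for 43.5% of the log2 variance on the irradiated CPD array, against 24.3% for position 6 and 18.4% for position 18. With 6-4PP its share was 66.8%, against 12.4% and 17.7%.

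The same pattern held probe by probe. Each type was set against no site in the 25 combinations of the other positions. TT was higher in 25 of 25 at each position for CPD in the unadjusted intensity. In the adjusted intensity it was higher in 7 of 8 with 1 other site at positions 6 and 18. With 2 other sites it was then higher in 15 of 16 at position 18. In all other matched pairs TT remained higher. TC at position 12 was higher in 25 of 25 for 6-4PP, by 1.23 at the least and 2.33 at the most on the log2 scale. All 25 probes with TC at position 12, from 16611 to 39836.5 on the irradiated 6-4PP array, lay above all 25 probes with N there, which ended at 15097.5. With CT at position 18 the 6-4PP signal was higher in 17 of 25, and the effect of 0.06 ± 0.08 was within the spread.

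Of the 12 CPD effects, those below 0 were CC at position 6 (-0.06 ± 0.21, and -0.14 ± 0.05 in the adjusted intensity) and CC at position 18. At position 18 it was -0.20 ± 0.17, below 0 in 10 of 10 spot sets and higher in 7 of 25 matched probes, and in the adjusted intensity it was -0.28 ± 0.05. At position 12 it was 0.13 ± 0.18, within the spread. The adjusted intensity also lowered the outer effects of other types on the irradiated CPD array. TC at position 6 fell from 0.28 ± 0.19 to 0.06 ± 0.12, CT at position 6 from 0.42 ± 0.20 to 0.21 ± 0.09, and CT at position 18 from 0.24 ± 0.13 to 0.09 ± 0.06. CT at position 12 went from 0.31 ± 0.11 to 0.39 ± 0.12.

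Both antibodies were set side by side by the difference between types at a position. TT minus TC was 0.81 ± 0.11, 0.84 ± 0.11 and 0.73 ± 0.13 at positions 6, 12 and 18 for CPD, and TT was the brighter in 25 of 25 matched pairs each time. In the adjusted CPD intensity these counts were 25, 25 and 23 of 25. For 6-4PP TT minus TC was -0.18 ± 0.03, -0.59 ± 0.08 and -0.35 ± 0.04, and TT was the brighter in 1, 0 and 0 of 25. CT minus CC was 0.47 ± 0.20, 0.18 ± 0.11 and 0.44 ± 0.19 for CPD and -0.11 ± 0.06, -0.32 ± 0.06 and -0.15 ± 0.09 for 6-4PP. So a T at the second base went with a higher CPD signal than a C, and a C there with a higher 6-4PP signal, after either first base. These opposite signs come from 1 array of each antibody and were not tested.

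Signal levels of both antibodies across the probes were moderately related. On the UV arrays log2 medians had a Pearson r of 0.50 and a Spearman rho of 0.51 over all 5 × 5 × 5 probes, which share their backbone and, in part, their sites. By position 12 type, the median 6-4PP over CPD log2 ratio was 2.22 with TC, 1.70 with CC, 1.30 with CT, 1.25 with N and 0.83 with TT. These ratios include any difference in dilution and scanner gain, so their absolute size cannot be read. In the adjusted intensity N lay above CT, at 1.38 against 1.04, so the order of those neighbours is not settled.

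Flanking bases could be set against place with the matching libraries on other backbones, each of the same layout and fitted in the same way. In the TBP and p53 libraries the pair between A and G stood at position 18, not at position 12. TC as ATCG added 1.73 ± 0.13 in the TBP library and 1.54 ± 0.08 in the p53 library on the irradiated 6-4PP array, next to 1.56 ± 0.08 at position 12 here. TC as GTCA added 0.65 ± 0.06 at position 6 of TBP and 0.58 ± 0.08 at position 12 of p53, next to 0.66 ± 0.05 and 0.80 ± 0.04 here. For 6-4PP, TC between A and G thus ran from 1.54 to 1.73 at position 12 or 18, and TC between G and A from 0.58 to 0.80 at position 6, 12 or 18. TC between A and A, as ATCA, lay above both ranges. It added 1.98 ± 0.08 at position 12 of TBP and 1.82 ± 0.13 at position 6 of p53.

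TT and CC ran alike with the 6-4PP antibody. TT as ATTG added 0.97 ± 0.08 here, 1.06 ± 0.07 in TBP and 0.81 ± 0.12 in p53, and TT as GTTA added 0.46 to 0.54 at positions 6 and 18 here and 6 of TBP, and 0.37 ± 0.08 in p53. CC as ACCG added 0.47 ± 0.07 here, 0.56 ± 0.07 in TBP and 0.44 ± 0.12 in p53. Between A and A, TT as ATTA added 1.36 ± 0.09 in TBP and 1.26 ± 0.09 in p53. CC as ACCA added 0.68 ± 0.11 in TBP and 0.58 ± 0.08 in p53. CPD values followed the flanks less closely. TT as ATTG added 1.53 ± 0.11 here, 1.71 ± 0.15 in TBP and 1.05 ± 0.14 in p53, while TT as GTTA added 1.09 ± 0.14 and 0.86 ± 0.14 here, 1.13 ± 0.15 in TBP and 0.76 ± 0.12 in p53. In the adjusted intensity p53 had ATTG at 0.95 ± 0.07 and GTTA at 0.97 ± 0.13, while ATTG stayed above GTTA here and in TBP. Outside these libraries, 38 sequences had GTTA and 30 had ATTG as their only dipyrimidine on either strand. Their median CPD levels were close, at 5987.5 with GTTA and 5972.5 with ATTG. For 6-4PP the medians were 7876.25 and 10569. Differences between libraries were not tested.

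The same MITF backbone was also printed with its sites on the opposite strand, in the same flanks. For 6-4PP, TC there added 0.66 ± 0.10, 1.49 ± 0.13 and 0.52 ± 0.12 at the places matching 6, 12 and 18, next to 0.66 ± 0.05, 1.56 ± 0.08 and 0.80 ± 0.04 on the listed strand. For CPD, TT added 0.47 ± 0.15, 0.90 ± 0.19 and 0.62 ± 0.18 on the opposite strand, against 1.09 ± 0.14, 1.53 ± 0.11 and 0.86 ± 0.14 on the listed strand. The mean TT effect for CPD was 0.66 ± 0.12 against 1.16 ± 0.08, and 0.60 ± 0.03 against 1.11 ± 0.08 in the adjusted intensity. The listed-strand TT value was higher at each position, though at position 18 the SDs of both overlapped. Since both libraries were on the same 4 arrays, this compares probes and has no replicate array.

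Positions 6 and 18, which share flanks, could be compared by exchanging their types. Over 50 such exchanges the median absolute difference was 0.18 on the log2 scale for CPD and 0.14 for 6-4PP. TT stood higher at position 18 in 8 of 20 exchanges for CPD and 8 of 20 for 6-4PP. TC stood higher at position 18 in 20 of 20 for 6-4PP, by a median of 0.17, and in 17 of 20 in the adjusted intensity, by 0.09. For CPD the count for TC was 10 of 20. Exchanges share probes with each other and are not independent.

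More sites went with more signal. On the irradiated CPD array the median probe level was 1572.5 with 0 sites, 2846.25 with 1, 3571.75 with 2 and 5598.75 with 3. For 6-4PP it was 3740.5, 7446.5, 11226.2 and 15532.5. Levels of 1-site and 3-site probes overlapped widely. A lone TC at position 12 read 18787.5 with 6-4PP, above CT-CT-CT at 6161.5 and CC-CC-CC at 10562. A lone TT at position 12 read 8823 with CPD, above TC-TC-TC at 3829.5, CT-CT-CT at 4222 and CC-CC-CC at 1913.5. Within a length, the median rose by 1.18 from 0 to 2 sites and by 1.01 from 1 to 3 sites for CPD on the log2 scale, and by 1.59 and 1.07 for 6-4PP. Rises from 0 sites depend on the reference, the lowest of 4 names here. Over all 40 spots the no-site median was 2147.5 for CPD and 4388 for 6-4PP. For CPD the 2-site median was 2.27 times the probe without a site, and 1.79 times in the adjusted intensity.

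Among the 64 probes with 3 sites, the number of TT ordered the CPD level. With 0 TT the 27 probes read 1899 to 6114.5, with 1 TT the 27 probes read 5125 to 9897, with 2 TT the 9 probes read 8618 to 12381.5, and TT-TT-TT read 14752.5 ± 2126 (SD, 10 spots). The number of TC did the same for 6-4PP. With 0 TC the 27 probes read 6161.5 to 19723.5, with 1 they read 10220.5 to 27712, with 2 the 9 probes read 18183 to 37752.5, and TC-TC-TC read 39836.5 ± 3509 (SD, 10 spots). Neighbouring classes overlapped up to 2 such sites, while the probe with 3 lay above all 9 with 2. Each further CT went with less 6-4PP signal among these probes, whose other sites were then fewer, with medians of 19190 at 0 CT, 13523.5 at 1, 9665 at 2 and 6161.5 at 3.

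The probes with the same type at all 3 positions show the antibodies apart, given in the order untreated CPD, irradiated CPD, untreated 6-4PP and irradiated 6-4PP. TT-TT-TT read 39.5, 14752.5, 63 and 19723.5. TC-TC-TC read 30, 3829.5, 59 and 39836.5. CT-CT-CT read 31, 4222, 62 and 6161.5, and CC-CC-CC 28.5, 1913.5, 59 and 10562. TT-TT-TT ranked 1 for CPD and 24 for 6-4PP, while TC-TC-TC ranked 74 and 1.

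Both ends of the ranking held few types. The 5 brightest on the irradiated CPD array were TT-TT-TT at 14752.5, TT-TT-TC at 12381.5, CT-TT-TT at 11586.5, CC-TT-TT at 10894 and TT-TT-CC at 10531.5, all with TT at position 12. The 5 dimmest were N-CC-CC at 1345, CC-N-CC at 1428, N-N-CC at 1480.5, CC-N-TC at 1540 and N-N-N at 1572.5. These 5 held no TT and no CT, and N-CC-CC lay below the probe without a site, with overlapping spots. In the adjusted intensity the dimmest was CC-CC-CC at 1704.83, or 0.708 times the probe without a site at 2408.51. Of the 25 brightest, 19 had TT at position 12. Of the 25 dimmest, 0 had TT anywhere.

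On the irradiated 6-4PP array the 5 brightest were TC-TC-TC at 39836.5, TT-TC-TC at 37752.5, TC-TC-TT at 33649.5, CC-TC-TC at 32542.5 and CT-TC-TC at 29464, all with TC at position 12. After N-N-N, the dimmest were CT-N-CT at 5200.5, N-CT-CT at 5373.5, CT-N-N at 5478 and N-CT-N at 5524, so that all 4 held CT alone. Of the 25 brightest, 20 had TC at position 12. The CC-TC-TC probe ranked 4 with 6-4PP and 102 with CPD, at 2419 ± 1266 (SD, 10 spots).

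TC sites added less to the 6-4PP signal on the log2 scale when others were present, and similar amounts in intensity. TC at position 12 raised 6-4PP intensity by 15047 on a probe with no other site, by a median of 13198.5 with 1 other site (8 probes) and by 16478.8 with 2 others (16 probes). On the log2 scale the same differences were 2.33, 1.52 and 1.48. TT at position 12 raised CPD intensity by 7250.5, 4798.5 and 5847, or 2.49, 1.61 and 1.45 on the log2 scale. TT at position 6 raised CPD intensity by 4687.5, 2943.75 and 3835.25, or 1.99, 1.05 and 0.82. In the adjusted CPD intensity the fall on the log2 scale was smaller at position 6. TT there added 2978.45, 3783.1 and 3889.66, or 1.16, 1.07 and 0.93. TT at position 12 then added 8752.74, 5413.72 and 6458.98, or 2.21, 1.67 and 1.41. For 6-4PP, TC at position 18 raised the unadjusted intensity by 6973.5, 6334 and 7089.25.

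The excess over the sum of the single sites put this in numbers for all 112 probes with 2 or 3 sites. Predicted as the sum of single-site log2 differences, the 6-4PP excess was a median of -0.59 with 2 sites (SD over 9 complete spot sets 0.39) and -1.18 with 3 sites (SD 0.69), and 0 of 48 and 0 of 64 probes exceeded the sum. With all 40 no-site spots as the reference the medians were -0.36 and -0.72. For CPD the medians were -0.49 and -1.02 with SDs of 0.84 and 1.80, so they lay within the spread over spot sets. With the adjusted intensity they were -0.13 and -0.20, and with all 40 no-site spots -0.05 and -0.12.

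A sum of intensities came closer than the log2 sum in the unadjusted data. For this alternative, chosen after the data had been seen, each single-site probe's intensity above the probe without a site was added up. The measured 6-4PP level was then a median of 0.889 times the sum with 2 sites and 0.896 times with 3, and 47 of 48 and 61 of 64 probes lay within 0.5 of it on the log2 scale. For CPD the ratios were 0.783 and 0.786, and 31 of 48 and 45 of 64 probes lay within 0.5. In the adjusted intensity the ratios were 0.960 and 0.959, and 43 of 48 and 59 of 64 lay within 0.5. The log2 sum had 42 and 46 within 0.5 in that intensity. The brightest single site of each probe, taken alone as the prediction and also chosen after the data had been seen, came closer still for unadjusted CPD, with 37 of 48 and 55 of 64 within 0.5. For adjusted CPD it had 41 and 50, fewer than the sum of intensities. For 6-4PP that prediction had 46 of 48 and 36 of 64. TC-TC-TC stood out above with 6-4PP, at 1.29 times the summed 30903 (1.39 times in the adjusted intensity). TT-TT-TT read 0.840 times the summed 17563.5 with CPD (0.959 times in the adjusted intensity). CT-CT-CT read 0.666 times the summed 9252.5 with 6-4PP (0.724 times in the adjusted intensity).

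The largest departures from the log2 sum were shortfalls in probes rich in TT. For CPD they were TT-TT-TT at -3.09, TT-TT-CT at -2.92 and TT-TC-TT at -2.80, which became -1.79, -1.25 and -1.11 in the adjusted intensity. For 6-4PP they were TT-TC-TT at -1.87, TC-TT-TT at -1.77 and TT-TT-TT at -1.71. The highest for CPD were TC-CC-TC at 1.04, TC-CC-N at 0.92 and N-CC-TC at 0.81, which fell to 0.23, 0.19 and 0.07 in the adjusted intensity. For 6-4PP the highest were CT-CT-N at -0.03, CC-CC-N at -0.25 and CT-CC-N at -0.30, still below the sum. These probes were picked as extremes and are a description.

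Background was set on each array by the 160 library sequences without a dipyrimidine on either strand, at their 95th percentile. On the irradiated CPD array 78 of the probes were above it, or 62.4%, beside 60.8% of all 5480 library sequences. On the irradiated 6-4PP array 111 were above it, or 88.8%, beside 89% of the library. On the non-UV arrays 47 and 31 were above, beside 36% and 23.9% of the library. As a whole the set was therefore close to the library on each array at that percentile in the unadjusted intensity. At the 99th percentile 7 of the probes, or 5.6%, were above on the untreated 6-4PP array, beside 634 of 5480 library sequences. In the adjusted intensity at the 95th percentile 62 of the probes, or 49.6%, were above on the untreated CPD array, beside 2182 of 5480 library sequences. Of 61 probes with at least 1 TT, 60 exceeded background with CPD (61 of 61 in the adjusted intensity), while 0 of the 7 whose only sites were CC and 1 of the 7 whose only sites were CT did. On the irradiated 6-4PP array 61 of 61 with a TC and 61 of 61 with a TT were above, against 4 of 7 with CC only and 1 of 7 with CT only.

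Every probe was brighter on the UV array than on the non-UV array of the same antibody, as was 100% of the library. In log2 units the median difference was 7.27 for CPD, from 5.61 to 8.60, and 7.77 for 6-4PP, from 6.11 to 9.40. It was 5.86 for CPD and 6.11 for 6-4PP in the probe without a site, and 7.53 and 8.00 as medians over 3-site probes. If the titles of the 6-4PP arrays were right, the 6-4PP difference would be -7.77. A difference between arrays includes any change in scanner gain, which is not given.

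The untreated CPD array kept a trace of the CPD order of types at intensities of 25.5 to 41.5. Its TT effect was 0.17 ± 0.04 averaged over positions, TC and CT were at 0.05 ± 0.02 and 0.05 ± 0.04, and CC was at -0.01 ± 0.04. By position, 39.6% of the log2 variance there went with position 6 and 22.0% with position 12, unlike the irradiated CPD array. With the sites on the opposite strand of the same backbone, the TT effect on that array was 0.03 ± 0.03. In the listed-strand libraries on other backbones it was 0.40 ± 0.03 (TBP) and 0.23 ± 0.04 (p53), so it was not limited to the MITF backbone. TT-TT-TT read 39.5 against 27 for the probe without a site. Log2 medians of the 2 CPD arrays had a Pearson r of 0.71 over the probes, and those of the 2 6-4PP arrays 0.20. On the untreated 6-4PP array the mean effects of the 4 types lay between 0.04 and 0.07. The cause of the order on the untreated CPD array was not tested.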

How the data were processed

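Antibody signal on 125 probes of the MITF three-position library was taken from 4 arrays, 1 for each antibody and condition. The deposited files hold spot intensity on a linear scale, per the file headers, in 3 columns: all spots, unflagged spots, and unflagged spots spatially adjusted by local brightness. Image software, flag rules and normalization were not stated in the labels. Unflagged intensity was the main value. Flags removed 41 of 1250 spots on the untreated 6-4PP array, 12 on the irradiated 6-4PP array and 0 on the CPD arrays, which left at least 8 spots for each probe.

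Probe levels are medians over spots. Effects are from least squares on log2 medians, with the SD over 10 spot sets. Spots of probes were compared by exact two-sided permutation tests with Benjamini-Hochberg adjustment at 0.05. Spots of a probe are technical repeats on an array, so these p-values measure the spread between spots and say nothing of repeat irradiations. Against the 40 no-site spots 100000 resamples were drawn. The number of arrays limits the precision. The fit and the tests were tested on simulated data. Python 3.11.15, numpy 2.4.6, pandas 2.3.3 and scipy 1.17.1 were used.

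Members and comparisons were chosen with earlier results of these data known. Named probes are that without a site, those with 1 site, those with the same type at 3 positions, the 5 highest and 5 lowest on each UV array, and the 3 largest departures each way from the log2 sum. Alternatives were the adjusted intensity, means of log2 values, flagged spots kept, UV minus non-UV values, single-site probes alone, a length term, linear means, the 99th percentile, the title of the 6-4PP arrays and, added after the data had been seen, all 40 no-site spots, the sum of intensities and the brightest single site alone.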

Additional observations from a re-analysis of the deposited data

Results flagged for a closer look

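The difference between types had opposite signs with the 2 antibodies, which drew attention at all 3 positions. TT minus TC on the log2 scale was 0.81 on the irradiated CPD array and -0.18 on the irradiated 6-4PP array at position 6, 0.84 and -0.59 at position 12, and 0.73 and -0.35 at position 18. CT minus CC was 0.47 and -0.11 at position 6, 0.18 and -0.32 at position 12, and 0.44 and -0.15 at position 18. Each antibody was on 1 irradiated array, so the difference between antibodies was not tested.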

How the results depend on the processing

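TT led for CPD, and the order TC over TT over CC over CT held for 6-4PP, in every alternative that gave mean type effects. CC for CPD was within its spread of 0 in the unadjusted fit, at -0.04 ± 0.12, but was -0.11 ± 0.05 in the adjusted intensity. From single-site probes alone it was 0.01. Means of log2 over spots, flagged spots kept and a length term moved no main result beyond the spread over spot sets. Background counts have no such spread. At the 99th percentile 73 probes (58.4%) were above on the irradiated CPD array, beside 2980 of 5480 library sequences. On the irradiated 6-4PP array 107 (85.6%) were, beside 4682. On the untreated 6-4PP array the count fell from 31 to 7 (5.6%), beside 634 in the library. Sizes depended on the reference. From single-site probes alone against the probe without a site, CPD effects of TT, TC and CT were 2.11, 0.67 and 0.93, and 6-4PP effects of TT, TC, CT and CC were 1.37, 1.70, 0.58 and 0.72. Against all 40 no-site spots they were 1.66, 0.22, 0.48 and -0.44 (TT, TC, CT and CC) with CPD, and 1.14, 1.47, 0.35 and 0.49 in that order with 6-4PP. In the adjusted intensity those became 1.58, 0.43, 0.50 and -0.19, and 1.11, 1.35, 0.27 and 0.44. As UV minus non-UV values, TT was 0.99 for CPD, and TT, TC and CC were 0.58, 0.94 and 0.24 for 6-4PP. From arithmetic means of intensity, TT was 0.99 for CPD, and TT and TC were 0.59 and 0.96 for 6-4PP. The adjusted intensity gave 0.61 for TT with 6-4PP, 10 single-site probes past the threshold for CPD with either reference, and 5 and 7 position pairs. Titles in place of the condition field gave -7.77 for the 6-4PP difference. Shortfalls from the sum for 6-4PP became -0.17 (2 sites) and -0.16 (3 sites) with summed intensities, turned to 0.16 and 0.45 above the brightest single site taken alone, and were 0.023 and -0.00093 with the effects of the additive fit, which centres such differences by its construction. Causes of the other changes were not tested. No paired analysis was possible because each antibody and condition has 1 array. The uneven brightness of the irradiated CPD array limits small CPD effects.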
